A study of Mus musculus with 9 samples.

Results

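Collagen chain genes were taken by name as the rows of the expression table that read Col, a type number, the letter a and a chain number, which gave 44 of 21989 genes in 27 collagen types. They fell into 9 fibrillar genes (types 1, 2, 3, 5 and 11), 6 basement membrane genes (type 4), 6 beaded filament genes (type 6) and 23 others. All 44 were found by name as protein-coding genes in GENCODE M21. RNA sequencing had measured them in the aortic arch of mice, the bend of the vessel where it leaves the heart and a place where plaque forms early, in 3 groups of 3 libraries. High dose libraries came from ApoE-/- mice on a high-fat diet that received 5.12 g/kg/d of ZCL, the preparation studied, by gavage for 15 weeks. Model libraries came from ApoE-/- mice on the high-fat diet without ZCL, and control libraries from C57BL/6J mice fed standard diet. High dose and model thus shared genotype and diet and differed by ZCL, while model and control differed by genotype and diet together. The loss of ApoE, an apolipoprotein that clears remnant lipoproteins, is carried in every cell of these mice. Ages, any vehicle given to the other groups and the origin of each library from 1 or several animals are not given in the labels. How far the spread between the libraries of a group reflects animals, dissection or technique is thus not known.

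Collagens are secreted proteins whose chains wind around each other into trimers. In the artery wall, fibrillar collagens of types I and III give tensile strength and are made mainly by adventitial fibroblasts and smooth muscle cells, and in plaque they form the fibrous cap. Type V collagen starts the fibrils and sets their width. Type IV collagen forms the sheet-like network of basement membranes under endothelium and around smooth muscle cells. Type VI collagen forms beaded filaments near the cell surface, and further types coat fibrils, span cell membranes or sit beside basement membranes. Chains that share a trimer are encoded by separate genes, some of them head to head on the chromosome.

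The genes of the main basement membrane chains, Col4a1 (chromosome 8, 11198423 to 11312826, minus strand) and Col4a2 (chromosome 8, 11312805 to 11449287, plus strand), are such a pair on GRCm38. Their starts lay 21 bases apart and their annotated ends overlapped by 22 bases. The start of Col4a3 lay 72 bases from that of Col4a4 on chromosome 1, and the start of Col4a5 lay 1309 bases from that of Col4a6 on chromosome X. The fibrillar genes have no shared start. Col1a1 lies on chromosome 11 (94936224 to 94953042, plus strand), Col1a2 on chromosome 6 (4504814 to 4541544, plus strand) and Col3a1 on chromosome 1 (45311538 to 45349706, plus strand), with 24614 bases between Col3a1 and Col5a2. RefSeq promoter windows on GRCm38.p6, each with 250 bases before a gene's start and 50 bases after it, were found for 35 of the 44 genes, the others being Col1a1, Col2a1, Col4a3, Col5a2, Col9a3, Col12a1, Col14a1, Col22a1 and Col26a1. The windows of 4 genes are shown because the 2 head-to-head genes had the narrowest spread of level over libraries among the abundant collagens, and Col1a2 and Col3a1 were among those with the widest. Capitals mark 3 motifs, or their reverse complements, since both strands were searched. They are the CCAAT box (CCAAT), the TATA box (TATAAA) and the GC box (GGGCGG). No marked match overlapped another. The windows are chr8:11312777-11313076 (minus strand) for Col4a1, chr8:11312555-11312854 (plus strand) for Col4a2, chr6:4505368-4505667 (plus strand) for Col1a2 and chr1:45311288-45311587 (plus strand) for Col3a1. GENCODE places the outer start of Col1a2 upstream of the RefSeq start used for its window.
Col4a1: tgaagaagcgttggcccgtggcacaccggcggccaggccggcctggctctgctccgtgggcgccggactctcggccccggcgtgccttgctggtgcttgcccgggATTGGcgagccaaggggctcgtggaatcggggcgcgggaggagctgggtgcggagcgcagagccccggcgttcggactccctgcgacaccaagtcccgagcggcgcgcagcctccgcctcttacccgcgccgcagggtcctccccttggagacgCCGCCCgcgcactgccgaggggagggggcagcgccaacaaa
Col4a2: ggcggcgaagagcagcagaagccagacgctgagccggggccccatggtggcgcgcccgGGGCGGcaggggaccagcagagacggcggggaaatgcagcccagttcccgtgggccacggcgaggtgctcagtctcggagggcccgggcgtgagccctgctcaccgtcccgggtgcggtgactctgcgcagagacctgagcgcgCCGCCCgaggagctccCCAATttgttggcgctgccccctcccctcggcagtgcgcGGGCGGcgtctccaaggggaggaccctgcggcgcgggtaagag
Col1a2: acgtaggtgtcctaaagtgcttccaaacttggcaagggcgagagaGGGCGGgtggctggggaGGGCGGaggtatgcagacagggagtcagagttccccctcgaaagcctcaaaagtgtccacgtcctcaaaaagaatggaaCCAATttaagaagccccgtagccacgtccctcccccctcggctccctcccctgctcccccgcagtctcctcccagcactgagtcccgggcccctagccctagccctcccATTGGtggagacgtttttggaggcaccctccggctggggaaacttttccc
Col3a1: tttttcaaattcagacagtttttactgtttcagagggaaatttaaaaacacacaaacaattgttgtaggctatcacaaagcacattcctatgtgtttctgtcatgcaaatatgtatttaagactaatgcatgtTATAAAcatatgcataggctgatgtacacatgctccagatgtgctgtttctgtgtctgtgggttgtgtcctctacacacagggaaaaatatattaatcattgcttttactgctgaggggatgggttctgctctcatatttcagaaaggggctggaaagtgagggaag

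The Col4a1 and Col4a2 windows shared 78 bases, read from opposite strands. Both were GC-rich (74.0% and 73.7%), and each held 1 CCAAT match, at different places. Of GGGCGG, the Col4a1 window held 1 match and the Col4a2 window 3, of which 1 is the same site, and neither window held TATAAA. The Col1a2 window (GC 61.0%) held 2 CCAAT and 2 GGGCGG matches, and the AT-rich Col3a1 window (GC 37.7%) held 1 TATAAA match alone. Over all 32851 windows, 37.4% held CCAAT, 13.6% TATAAA and 35.7% GGGCGG. Of the 38 collagen windows, 34.2% held CCAAT, 13.2% TATAAA and 60.5% GGGCGG. These matches describe letters. The windows shown were chosen by spread of level, and no relation between matches and levels was tested.

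Levels are given in FPKM, fragment numbers divided by gene length and library total, so they can be compared between genes. Between libraries they are relative to a total whose make-up differs. The 6 red cell markers, for example, summed to 64113 FPKM in model 1 and 2693 FPKM in high dose 1. Relative depth, read from the steps between low FPKM values, lay between 56.3% and 100% of model 1. Apoe, the gene targeted, stood at 30.3, 93.7 and 25.4 FPKM in high dose and 18.9, 33.4 and 24.5 FPKM in model, against 829, 1006 and 339.9 FPKM in control, as the genotype labels state. Smooth muscle markers were above 0 in every library. Several libraries also carried genes of neighbouring tissue. The 7 heart muscle markers summed to 21.5 to 16178 FPKM in high dose, 41.5 to 80.2 in model and 28.0 to 26868 in control. The 7 airway markers summed to 28182 FPKM in high dose 2, to 7771 in control 2 and to at most 94.6 elsewhere. The 6 chromaffin and sympathetic markers summed to 1675 FPKM in high dose 1, 338 in control 2 and at most 89.5 in the others. The 7 white and brown fat markers summed to 5857 FPKM in high dose 1, 12950.2 in control 3 and 993 to 3869 in the others. High dose 1 and control 3 were also the libraries with the lowest summed collagen. The 6 skeletal muscle markers summed to 7203 FPKM in high dose 2 and to at most 363 elsewhere. The part of these tissues in the collagen levels was not tested, except where a value without the libraries is given.

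The summed level of the 44 genes was 287, 542 and 1528 FPKM in high dose, 2312, 877 and 1021 FPKM in model and 591, 709 and 488 FPKM in control. Every model library thus lay above every control library, while high dose ran from below all controls to above 2 of the 3 model libraries. Collagen made up between 0.0713% (high dose 1) and 0.518% (model 1) of all FPKM. Fibrillar genes varied most between libraries. Their sum was 79.8, 230.3 and 1145 FPKM in high dose, 438 to 1550 in model and 131 to 309 in control. Basement membrane genes summed to 127 to 214 FPKM in high dose, 209 to 277 in model and 159 to 234 in control. The mix of classes followed. Fibrillar genes made up 27.8%, 42.5% and 75.0% of collagen FPKM in high dose, 67.0%, 50.0% and 53.3% in model and 44.2%, 43.6% and 26.8% in control. Basement membrane genes made up 12.0% (model 1) to 48.0% (control 3), and 47.6% in high dose 1.

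**Figure D1:**
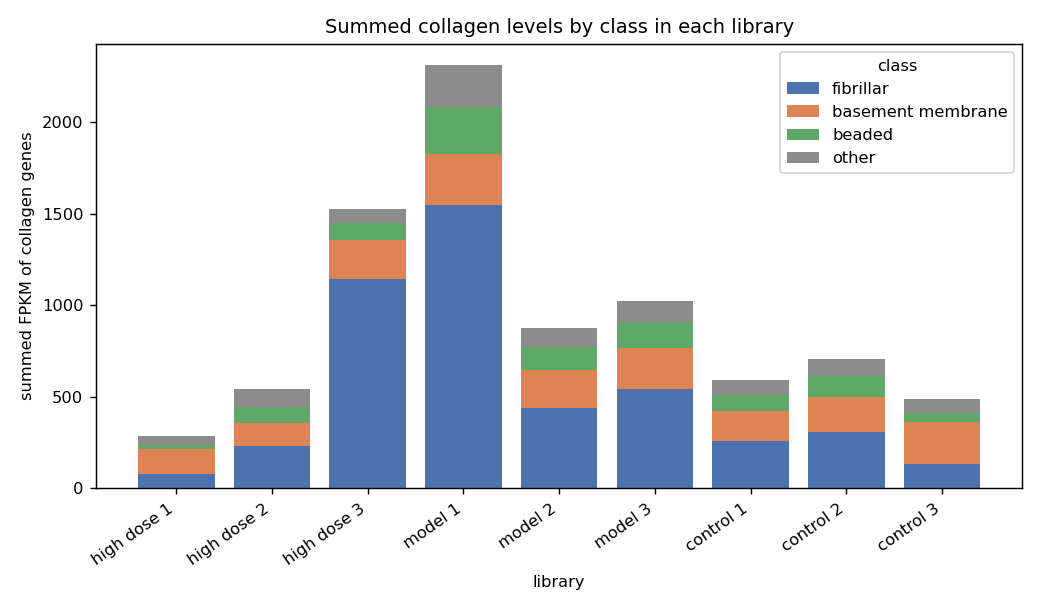
Summed FPKM (vertical axis) of the 44 collagen genes in each of the 9 libraries (horizontal axis), stacked by class. The fibrillar part varies most, between 79.8 FPKM in high dose 1 and 1550 FPKM in model 1, while the basement membrane part stays between 127 and 277 FPKM.

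Of the 44 genes, 20 reached 1 FPKM in all 9 libraries and 10 in none of them. Another 8 reached it in 1 or 2 libraries, which was too few for the filter of 1 FPKM in 3 libraries, so 26 were tested and 18 were not. The tested genes comprised 6 fibrillar, 5 basement membrane, 3 beaded and 12 other genes. Among the tested genes, 16 had their highest level in model 1 and 15 their lowest in high dose 1, and both libraries belong to the groups set against each other below. High dose 1 also had the lowest smooth muscle marker sum, 488 FPKM against 1550.1 to 4471 in the other 8 libraries. In bulk tissue, fewer cells of a type and less RNA per cell cannot be told apart.

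**Figure D2:**
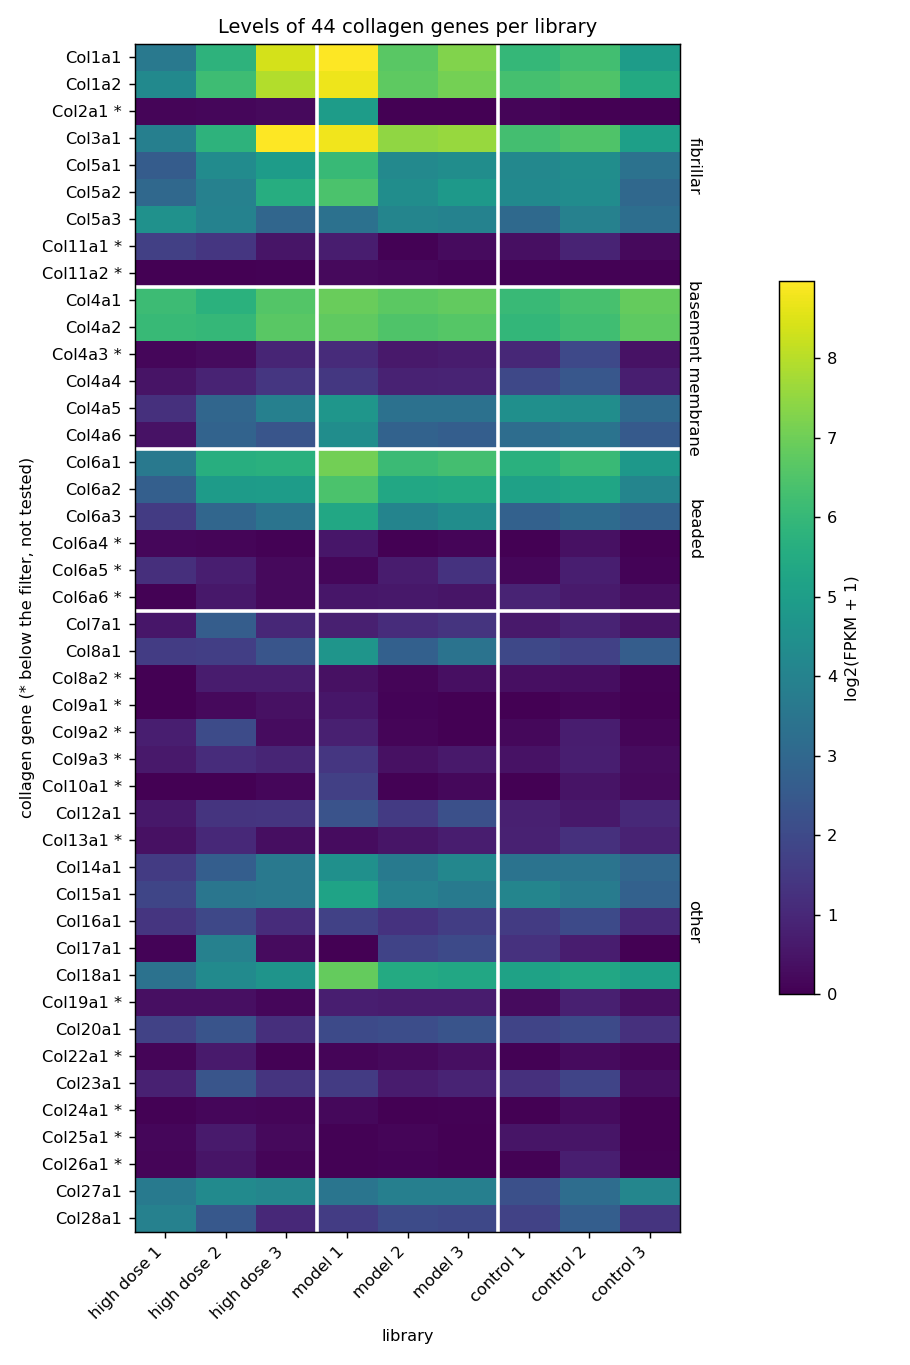
Level of each of the 44 collagen genes (rows, by class, an asterisk for the 18 not tested) in each library (columns) as log2(FPKM + 1), on the colour scale at the right. The bright rows are Col1a1, Col1a2, Col3a1, Col4a1, Col4a2 and Col6a1, and the high dose 1 column is darker in Col1a1, Col1a2, Col3a1 and Col6a1 than in Col4a1 and Col4a2.

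In mice given ZCL, set against untreated ApoE-/- mice on the same diet, most tested collagen genes had lower mean levels, the largest log2 differences being those of Col6a3 and Col18a1, but none passed the test. The log2 difference was below 0 for 20 of the 26 genes and above 0 for 6, with a median of -0.98 against 0.00 over all 12895 genes tested. By class the median was -1.22 for fibrillar, -0.67 for basement membrane, -1.54 for beaded and -0.22 for other genes. By limma, 0 of 26 had an adjusted p under 0.05 (Benjamini-Hochberg over all genes tested), as did 0% of all genes, and 8 had an unadjusted p under 0.05, where 13.4% of all genes did. All 3 high dose libraries lay below all 3 model libraries for 9 collagen genes, and above them for 0. The shares over all genes were 10.9% below and 11.7% above. Without high dose 1 the median was -0.47, with 21 of 26 below 0, and without model 1 it was -0.63. High dose also lay below model without overlap in the endothelial marker sum (217 to 385 FPKM against 415 to 483) and the red cell marker sum (2693 to 21259 FPKM against 21374 to 64113), and above it in the chromaffin and sympathetic marker sum (7.06 to 1675 FPKM against 0.228 to 2.35). The fibroblast marker sum overlapped (727 to 2609.6 FPKM in high dose, 869 to 1609 in model). Their part in the collagen levels was not tested.

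In untreated ApoE-/- mice on the high-fat diet, set against C57BL/6J mice on the standard diet, most tested collagen genes had higher mean levels, the largest log2 differences being those of Col3a1 and Col1a1 and the smallest p-values those of Col12a1, Col6a3 and Col8a1, but again none passed the test. The log2 difference was above 0 for 22 of the 26 genes and below 0 for 4, with a median of 0.66 against -0.01 over all genes tested. The median was 0.35 with no filter and 1.20 with the heart muscle list as a covariate. The class medians were 1.39 for fibrillar, 0.25 for basement membrane, 0.97 for beaded and 0.58 for other genes. By limma, 0 of 26 had an adjusted p under 0.05, as did 0% of all genes, and 3 had an unadjusted p under 0.05, where 6.37% of all genes did. Apoe, the gene targeted, had the smallest p of all genes tested. It also missed the threshold, with a log2 difference of -4.67 ± 0.561 (limma, adjusted p = 0.216). A gene that was not called is thus not shown to be unchanged. All 3 model libraries lay above all 3 control libraries for 10 collagen genes, and below them for 0. Over all genes these shares were 6.91% above and 9.06% below. The chromaffin and sympathetic marker sum (0.228 to 2.35 FPKM in model, 19.9 to 338 in control), the macrophage marker sum (1193 to 5004 FPKM in model, 195 to 683 in control) and the red cell marker sum (21374 to 64113 FPKM in model, 8840.1 to 15943 in control) also did not overlap. The fibroblast sum, 869 to 1609 FPKM in model, lay within the 732 to 3174 FPKM of control.

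High dose against control gave no common direction, with 12 of the 26 log2 differences above 0 and 14 below, and a median of -0.04 against 0.00 over all genes. By limma, 0 of 26 had an adjusted p under 0.05, as did 0% of all genes. Col18a1 alone had an unadjusted p under 0.05, where 5.44% of all genes did. Col18a1 was also the 1 gene whose high dose libraries all lay below the control libraries, and 0 lay above. Over all genes these shares were 5.02% below and 3.66% above. Class medians were 0.23 for fibrillar, -0.79 for basement membrane, -0.54 for beaded and 0.18 for other genes. The 3 comparisons share libraries in pairs, so their values are set side by side and are not independent of each other.

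**Figure D3:**
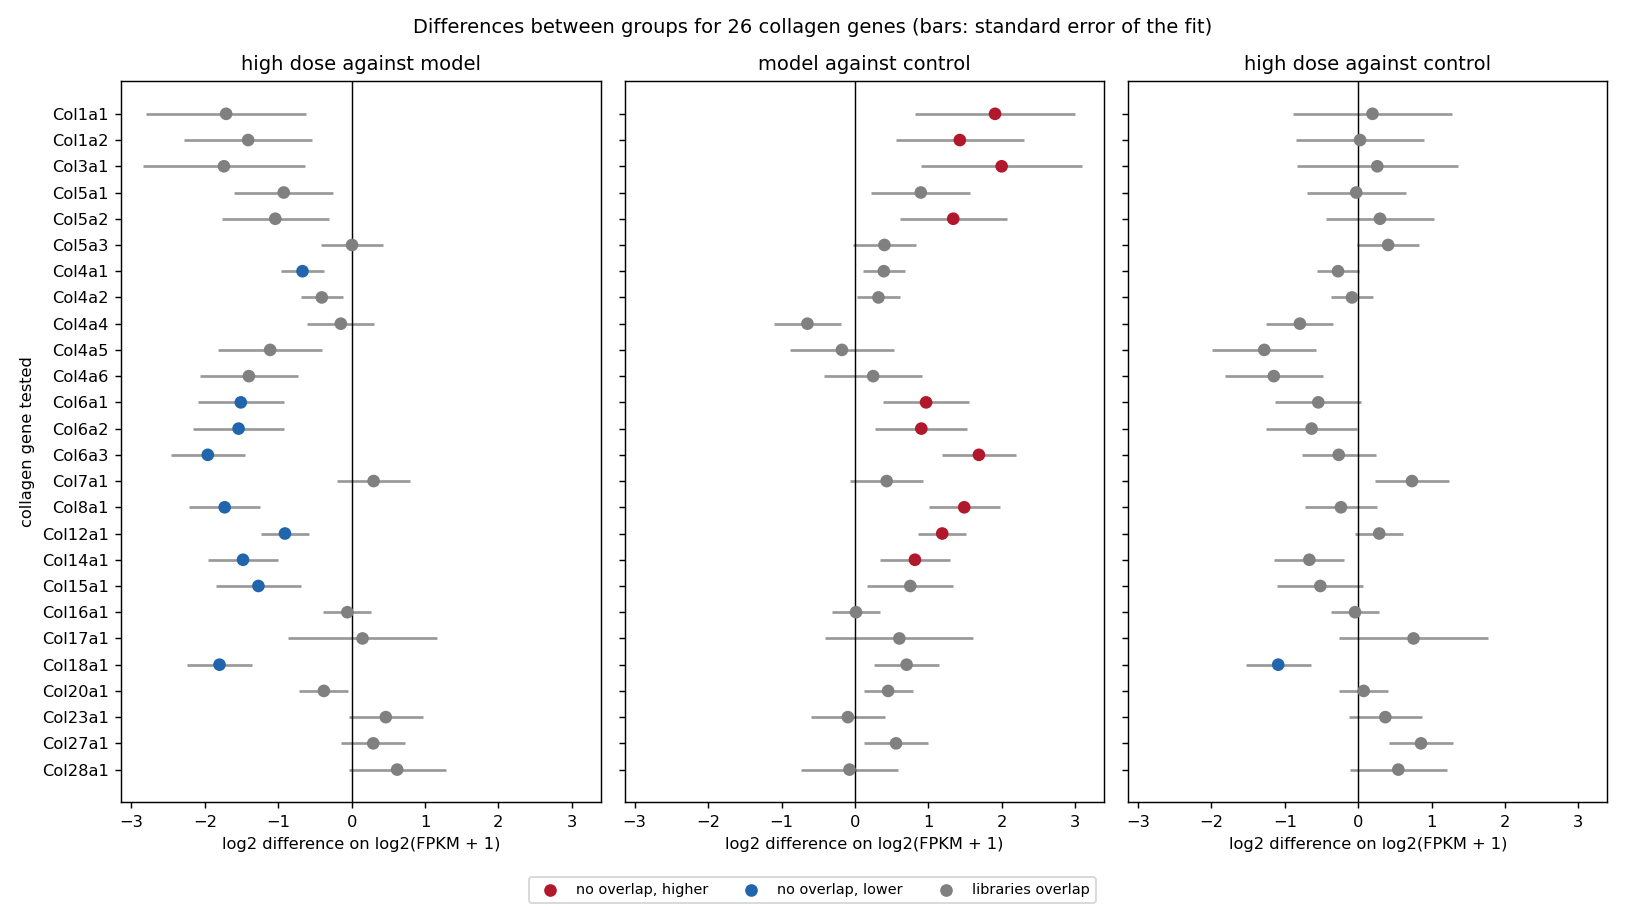
Log2 difference (horizontal axes, on the log2(FPKM + 1) scale) of the 26 tested collagen genes (rows) in the 3 comparisons, with the standard error of the fit as bars. Blue points mark the 9 genes (left panel) and the 1 gene (right panel) whose libraries all lay lower, red points the 10 genes of the middle panel whose libraries all lay higher.

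Among the fibrillar genes, Col1a1 encodes the main chain of type I collagen, the commonest fibril of the artery wall. It stood at 11.2, 54.3 and 330.4 FPKM in high dose, 499, 101 and 153 FPKM in model and 62.1, 75.0 and 30.0 FPKM in control. The high dose libraries ran from below every control library to above 2 of the 3 model libraries, and each model library lay above each control library. In its own library Col1a1 was the gene of rank 5610 by level in high dose 1 and of rank 96 in model 1. The limma log2 difference was -1.71 ± 1.09 (SE) for high dose against model (adjusted p = 0.482), 1.91 ± 1.09 for model against control (adjusted p = 0.774) and 0.19 ± 1.09 for high dose against control (adjusted p = 0.985). Without high dose 1 the first of these was -0.55. Without high dose 3 it was -2.94, so these libraries pulled it in opposite directions. Without model 1 it was -1.05, and the difference of model from control was 1.24.

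Col1a2, the partner chain of type I collagen, stood at 18.3, 71.0 and 243 FPKM in high dose, 422, 107 and 137 FPKM in model and 79.2, 90.3 and 42.8 FPKM in control. The order of libraries was close to that of Col1a1. By limma the log2 difference was -1.41 ± 0.874 for high dose against model (adjusted p = 0.469) and 1.43 ± 0.874 for model against control (adjusted p = 0.792). The first was -0.48 without high dose 1, -2.31 without high dose 3 and -0.81 without model 1, and the second 0.84 without model 1. Col3a1 encodes type III collagen, whose loss in people weakens arteries to the point of rupture. It stood at 13.7, 55.0 and 488 FPKM in high dose, 441, 176 and 191 FPKM in model and 76.5, 88.9 and 32.7 FPKM in control. High dose 3, the highest library of all, and high dose 1, the lowest, belonged to the same group, 35.5-fold apart. The limma log2 difference was -1.74 ± 1.10 for high dose against model (adjusted p = 0.476) and 2.00 ± 1.10 for model against control (adjusted p = 0.764). The first was -0.58 without high dose 1 and -3.10 without high dose 3.

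Col5a1 and Col5a2 were lower in FPKM than Col1a1, Col1a2 and Col3a1 in all 9 libraries. Col5a1, which is needed for fibrils to start, stood at 5.05, 19.2 and 30.0 FPKM in high dose, 64.8, 17.6 and 20.2 FPKM in model and 17.4, 20.1 and 9.31 FPKM in control, and all groups overlapped. Col5a2, its partner, stood at 7.19, 14.2 and 46.9 FPKM in high dose, 84.2, 20.3 and 27.8 FPKM in model and 18.3, 19.6 and 7.13 FPKM in control. Model lay above control in every library for Col5a2, with a limma log2 difference of 1.34 ± 0.732 (adjusted p = 0.764), and 0.74 without model 1. Col5a3, a further type V chain, had another order, with 22.0, 14.7 and 6.75 FPKM in high dose, 9.18, 16.1 and 14.9 FPKM in model and 7.31, 14.5 and 8.34 FPKM in control. High dose 1, the lowest library for the other tested fibrillar genes except Col5a2, was its highest.

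The fibrillar genes of cartilage were near 0 in most libraries. Col2a1, the main cartilage collagen, stood at 30.0 FPKM in model 1 and at 0.00998 to 0.16 FPKM in the other 8 libraries. Col11a1, its fibril partner, reached 2.26 and 1.67 FPKM in high dose 1 and 2, against at most 0.858 elsewhere. Col11a2, a further partner, did not pass 0.18 FPKM. Col10a1, a collagen of mineralising cartilage, stood at 2.22 FPKM in model 1 and at most 0.376 elsewhere, though its exons overlap those of Nt5dc1 on the other strand. Col9a1, which sits on type II fibrils, did not pass 0.458 FPKM, its value in model 1. Among cartilage markers, Acan, the aggrecan gene, was also highest in model 1, at 7.02 FPKM. Matn1 was at 0 in all 9 libraries, and the sum of the 7 markers in the table was higher in high dose 3 (41.7 FPKM) than in model 1 (23.3 FPKM). Comp alone gave 34.8 FPKM of that sum in high dose 3 and 11.3 FPKM in model 1.

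**Figure D4:**
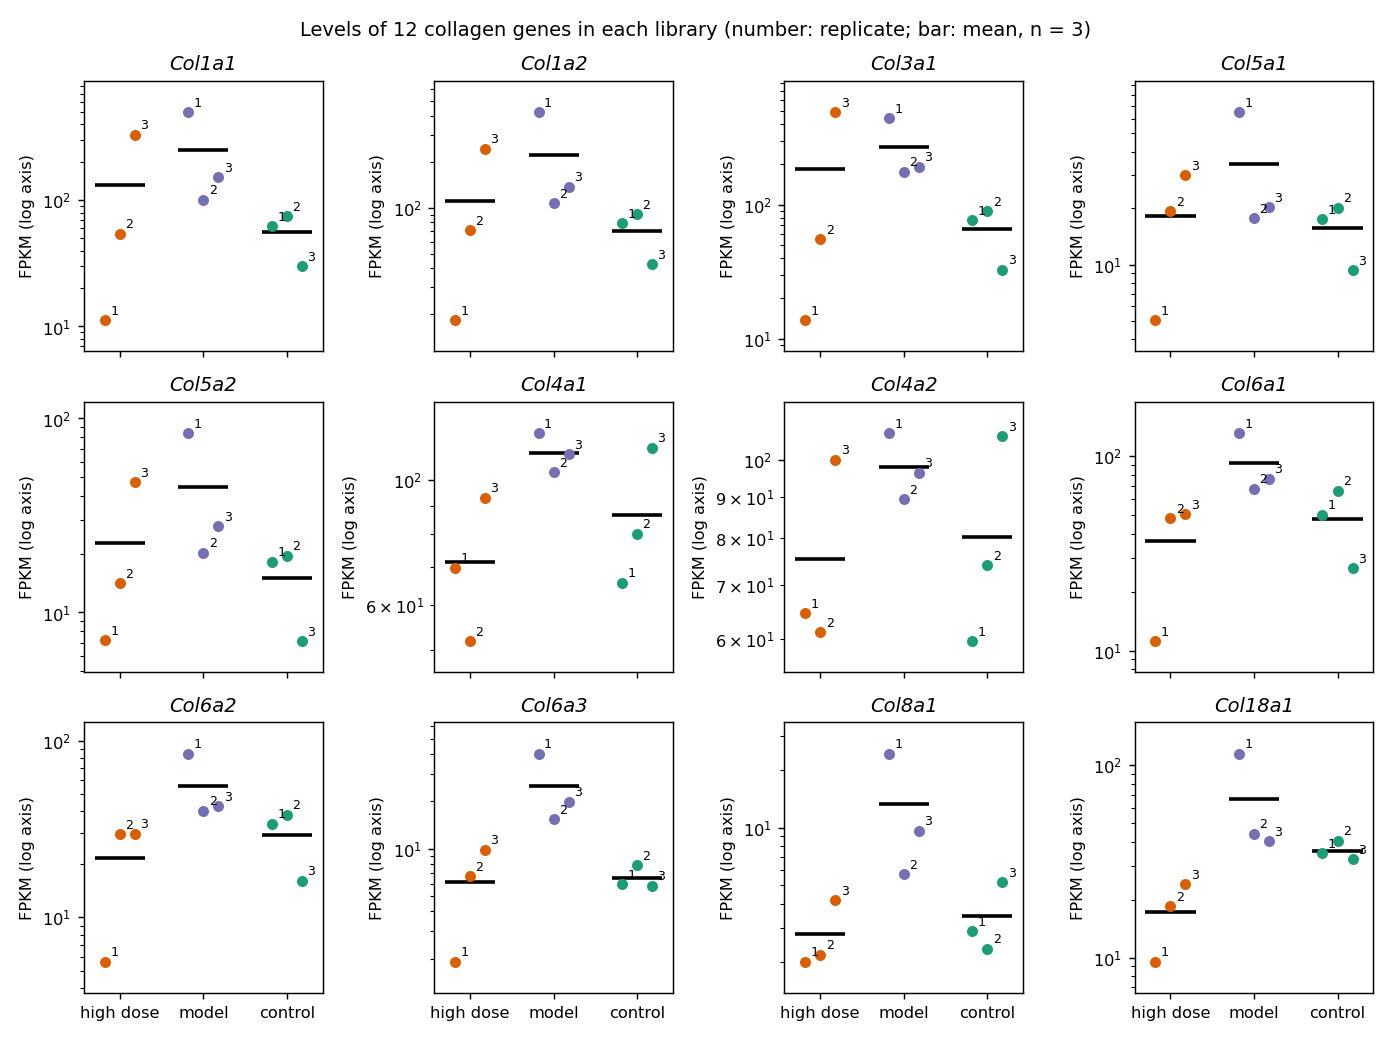
Level of 12 collagen genes in each library (vertical axes, FPKM on a log scale) by group, with the replicate number at each point and a bar at the mean of 3. High dose 1 is the lowest point in 9 of the panels and model 1 the highest in 11, while Col4a1 and Col4a2 span less than 3-fold.

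The basement membrane pair Col4a1 and Col4a2, which form the common type IV trimer, had the narrowest range of the abundant collagens. Col4a1 stood at 69.8, 51.8 and 92.9 FPKM in high dose, 121, 103 and 111 FPKM in model and 65.7, 80.2 and 114 FPKM in control. All high dose libraries lay below all model libraries, with a limma log2 difference of -0.67 ± 0.288 (adjusted p = 0.370). Col4a2 stood at 64.5, 61.1 and 100.1 FPKM in high dose, 108, 89.4 and 96.4 FPKM in model and 59.6, 74.0 and 107 FPKM in control. High dose 3 crossed into the model range, and the log2 difference of high dose against model was -0.41 ± 0.287 (limma, adjusted p = 0.526). The highest library stood 2.34-fold above the lowest for Col4a1 and 1.81-fold for Col4a2, against 44.7-fold for Col1a1. Col4a1 stood at 0.425 to 0.797 times the endothelial gene Pecam1 over the 9 libraries.

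Col4a5 and Col4a6, the chains of the basement membrane around smooth muscle, varied far more. Col4a5 stood at 1.35, 6.71 and 14.1 FPKM in high dose, 25.5, 9.14 and 9.16 FPKM in model and 21.2, 20.0 and 7.46 FPKM in control. Groups overlapped in every comparison, and the log2 difference from control was -1.28 ± 0.708 in high dose (limma, adjusted p = 0.888), and -0.55 without high dose 1. Col4a6 stood at 0.353, 6.30 and 4.18 FPKM in high dose, 19.9, 6.02 and 5.44 FPKM in model and 8.15, 9.54 and 4.84 FPKM in control. The log2 difference of Col4a6 was -1.15 ± 0.669 for high dose against control (limma, adjusted p = 0.888), and -0.43 without high dose 1. Col4a3 and Col4a4, known from kidney and lung basement membranes, were low. Both were highest in control 2, at 2.91 and 4.40 FPKM, and lowest in high dose 1, at 0.121 and 0.378 FPKM. High dose 2 had 0.200 and 0.864 FPKM, and the tissue these transcripts came from was not tested. Col4a4 alone of this pair was tested, with log2 differences of -0.65 ± 0.455 for model against control (limma, adjusted p = 0.828) and -0.79 ± 0.455 for high dose against control (limma, adjusted p = 0.888). Without control 2 these were -0.29 and -0.44, and without control 3 they were -1.13 and -1.27.

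The beaded filament genes Col6a1, Col6a2 and Col6a3 encode the chains of the common type VI trimer. Col6a1 stood at 11.2, 47.9 and 50.5 FPKM in high dose, 132, 68.3 and 76.8 FPKM in model and 50.1, 66.7 and 26.6 FPKM in control. Col6a2 stood at 5.62, 29.5 and 29.8 FPKM in high dose, 84.3, 40.2 and 42.5 FPKM in model and 33.9, 38.0 and 16.1 FPKM in control. For both, the model libraries lay above all other 6 libraries, while high dose and control overlapped. High dose against model gave limma log2 differences of -1.51 ± 0.587 for Col6a1 (adjusted p = 0.350) and -1.54 ± 0.625 for Col6a2 (adjusted p = 0.357). Without high dose 1 these were -0.84 and -0.80. Model against control gave 0.97 ± 0.587 for Col6a1 (adjusted p = 0.791) and 0.90 ± 0.625 for Col6a2 (adjusted p = 0.824, limma), which without control 3 were 0.61 and 0.53. Without model 1 Col6a2 was 0.57.

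Col6a3, the long chain, showed the largest difference of the tested collagen genes between high dose and model. It stood at 1.91, 6.70 and 9.83 FPKM in high dose, 40.2, 15.4 and 19.9 FPKM in model and 5.96, 7.88 and 5.81 FPKM in control. Again the model libraries lay above the other 6. The limma log2 difference was -1.96 ± 0.503 for high dose against model (adjusted p = 0.238) and 1.69 ± 0.503 for model against control (adjusted p = 0.688), and both had an unadjusted p under 0.05 (0.00394 and 0.00880). Left out in turn, high dose 1 gave -1.41 for the first and model 1 gave 1.31 for the second. Col6a4, Col6a5 and Col6a6, the later type VI chains, stayed under 1 FPKM apart from Col6a5, at 1.30 FPKM in high dose 1 and 1.46 in model 3.

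Among the other collagens, Col18a1 and Col15a1 encode the multiplexins of vascular basement membrane zones, and the end of the Col18a1 chain is the source of endostatin. Col18a1 stood at 9.53, 18.5 and 24.1 FPKM in high dose, 115, 44.1 and 40.3 FPKM in model and 34.9, 40.6 and 32.5 FPKM in control. It was the tested collagen gene whose high dose libraries lay below all 6 others. By limma the log2 difference was -1.80 ± 0.445 for high dose against model (adjusted p = 0.226) and -1.09 ± 0.445 for high dose against control (adjusted p = 0.872). Without high dose 1 these were -1.44 and -0.74. Col15a1 stood at 2.69, 10.6 and 11.4 FPKM in high dose, 35.7, 14.5 and 12.0 FPKM in model and 16.0, 12.3 and 5.84 FPKM in control. High dose lay just below model in every library, with a log2 difference of -1.27 ± 0.584 (limma, adjusted p = 0.380), and -0.71 without high dose 1 and -0.81 without model 1.

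Col8a1, a short-chain collagen known from injured and atherosclerotic vessels, stood at 2.00, 2.17 and 4.19 FPKM in high dose, 24.3, 5.70 and 9.63 FPKM in model and 2.89, 2.34 and 5.21 FPKM in control. All model libraries lay above the other 6, where high dose and control covered about the same range. The limma log2 difference was -1.73 ± 0.485 for high dose against model (adjusted p = 0.258) and 1.49 ± 0.485 for model against control (adjusted p = 0.708). For high dose against control it was -0.23 ± 0.485 (limma, adjusted p = 0.963). Without model 1 the first 2 were -1.20 and 0.97. Col8a2, its partner chain, did not pass 0.619 FPKM.

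Col12a1 and Col14a1 encode fibril-associated collagens that coat type I fibrils. Col12a1 stood at 0.491, 1.52 and 1.59 FPKM in high dose, 3.89, 1.86 and 3.59 FPKM in model and 0.731, 0.494 and 1.07 FPKM in control. The model libraries were again above all others, and the limma log2 difference was -0.91 ± 0.325 for high dose against model (adjusted p = 0.327) and 1.19 ± 0.325 for model against control (adjusted p = 0.688). Col14a1 stood at 1.97, 5.35 and 11.3 FPKM in high dose, 21.6, 11.6 and 16.9 FPKM in model and 9.72, 10.0 and 6.85 FPKM in control. The limma log2 difference of Col14a1 was -1.48 ± 0.476 for high dose against model (adjusted p = 0.285) and 0.82 ± 0.476 for model against control (adjusted p = 0.776). Without high dose 1 the first was -0.96. Col16a1, of the same family, stayed between 1.03 and 3.04 FPKM, with means of 1.89 ± 0.857 FPKM in high dose, 1.95 ± 0.442 in model and 2.01 ± 1.01 in control (SD, n = 3 each).

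A few collagen genes had their highest levels in high dose. Col28a1, known in mice from peripheral nerve, stood at 14.5, 4.56 and 1.03 FPKM in high dose, 2.02, 3.11 and 2.87 FPKM in model and 2.41, 5.38 and 1.56 FPKM in control. Its level was highest in high dose 1, the library high in chromaffin and sympathetic markers, and next in control 2 and high dose 2. Schwann cell markers summed to 291 FPKM in high dose 1, 629 in high dose 2 and 248 in control 2, and to 64.4 to 111 in the other 6 libraries. Col17a1, a membrane collagen of epithelial anchoring complexes, stood at 14.3 FPKM in high dose 2 and at most 3.07 elsewhere. Col7a1, which forms anchoring fibrils under epithelia, stood at 5.25 FPKM in high dose 2 and at most 1.53 elsewhere. Col23a1, a membrane collagen, stood at 4.14 FPKM in high dose 2 and at most 2.54 elsewhere. High dose 2 had the highest airway marker sum, and Krt5, a gene of basal epithelial cells, stood there at 134 FPKM and at most 12.2 elsewhere. Without the 2 libraries high in airway genes the log2 difference of high dose against model was -1.11 for Col17a1, against 0.15 ± 1.01 with them (limma, adjusted p = 0.959), and -0.33 for Col7a1, against 0.30 ± 0.500 with them (limma, adjusted p = 0.805).

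Col27a1, a late fibrillar collagen, stood at 11.9, 18.5 and 16.3 FPKM in high dose, 10.2, 13.5 and 13.5 FPKM in model and 3.57, 8.13 and 16.5 FPKM in control. High dose and model overlapped, and control 3 lay within the high dose range. The log2 difference of high dose against control was 0.86 ± 0.437 (limma, adjusted p = 0.888), the largest above 0 among the collagen genes in that comparison, and it was 0.37 without control 1 and 1.34 without control 3. The remaining tested gene, Col20a1, a fibril-associated collagen, stayed between 1.29 and 4.04 FPKM. Among those not tested, Col9a2, a partner of Col9a1, stood at 3.12 FPKM in high dose 2 and at most 0.724 elsewhere. Col9a3 stayed between 0.208 and 1.66 FPKM and the membrane collagen Col13a1 between 0.233 and 1.37 FPKM. Col19a1, Col22a1, Col24a1, Col25a1 and Col26a1 did not pass 0.744 FPKM.

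Ratios between chains of a trimer varied less than the chains. Col6a1 stood at 1.48 to 2.00 times Col6a2 over the 9 libraries, where Col6a1 itself spanned 11.7-fold. Col4a1 over Col4a2 was 1.08, 0.848 and 0.928 in high dose, 1.12, 1.15 and 1.15 in model and 1.10, 1.08 and 1.06 in control. The 3 model values lay above the other 6, with an SD of 0.0144. Col1a1 over Col1a2 was 0.612, 0.765 and 1.36 in high dose, 1.18, 0.941 and 1.11 in model and 0.783, 0.831 and 0.701 in control. Model lay above control in every library, and the order of this ratio over the 9 libraries was that of summed collagen, which contains both genes, except that high dose 3 and model 1 changed places. Col6a3 over Col6a1 was 0.170, 0.140 and 0.195 in high dose, 0.305, 0.226 and 0.259 in model and 0.119, 0.118 and 0.218 in control, with all model values on top. Ratios were not tested.

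**Figure D5:**
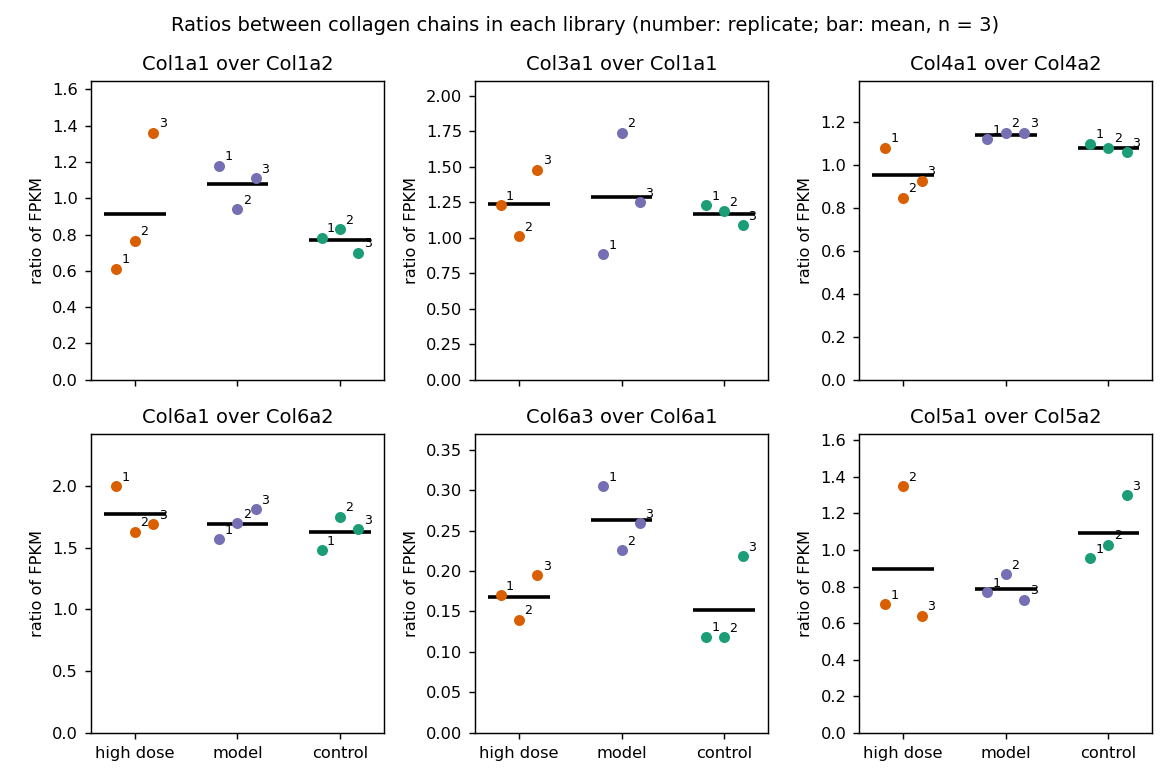
Ratio of FPKM between 2 chains (vertical axes, from 0) in each library by group, with the replicate number at each point and a bar at the mean of 3. Model values lie above all others for Col4a1 over Col4a2 (1.12 to 1.15) and for Col6a3 over Col6a1 (0.226 to 0.305).

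The level of Col1a1 was also set against each of the 7 fibroblast markers. The ratio lay above all control libraries in all model libraries for 6 of the 7 markers, and above all other 6 libraries for 3 of them, Dcn, Pdgfra and Dpt. Col1a1 over Dcn, the decorin gene, was 0.0333, 0.121 and 0.249 in high dose, 0.720, 0.260 and 0.329 in model and 0.0581, 0.0842 and 0.114 in control. Col1a1 over Pdgfra, a fibroblast receptor gene, was 3.40, 5.64 and 16.4 in high dose, 70.2, 17.0 and 19.6 in model and 4.50, 5.61 and 8.25 in control. In both of these ratios the model libraries lay above all other 6, with high dose 3 just below model 2. Over Pi16, Gsn and Mfap5, high dose 3 crossed the model range, as it had in the level of Col1a1. These ratios were 5.36, 0.617 and 3.86 in high dose 3. They were 2.43, 0.369 and 2.97 in model 2 and 2.39, 0.378 and 3.82 in model 3. In high dose 3, Dcn stood at 1329 FPKM, its highest value. Col1a1 over Lum, the lumican gene, was 1.29, 1.60 and 0.947 in high dose, 1.02, 1.78 and 1.16 in model and 0.970, 1.58 and 2.15 in control. The groups overlapped in this ratio, and Lum itself was highest in model 1, at 487 FPKM. None of the ratios to fibroblast markers was tested.

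Genes that process collagen were read from lists made for this purpose, and 0 of their tested members had an adjusted p under 0.05 by limma in any comparison. Among 15 genes that hydroxylate or glycosylate the chains, 13 lay below 0 and 2 above in high dose against model (median -0.48). P3h2, a prolyl 3-hydroxylase gene that acts on type IV collagen, stood at 1.66, 1.20 and 1.38 FPKM in high dose, 7.52, 4.82 and 4.12 FPKM in model and 4.98, 4.19 and 4.11 FPKM in control. Every high dose library lay below the other 6, and the high dose libraries stood close together. The limma log2 difference was -1.40 ± 0.241 for high dose against model (adjusted p = 0.159) and -1.17 ± 0.241 for high dose against control (adjusted p = 0.569). Plod1, a lysyl hydroxylase gene, stood at 6.22, 6.06 and 6.65 FPKM in high dose and 10.2, 13.5 and 13.3 FPKM in model, with a log2 difference of -0.86 ± 0.224 (limma, adjusted p = 0.240). Model against control had 13 of the 15 above 0 (median 0.43), with the smallest p for Plod3 at 0.63 ± 0.240 (limma, adjusted p = 0.732). High dose against control had 8 above and 7 below.

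Of 11 tested genes of chain folding and export, 8 lay below 0 in high dose against model and 10 above 0 in model against control, and of 6 tested genes of propeptide cleavage, 4 and 4. Sparc, whose secreted product binds collagen, stood at 294, 378 and 586 FPKM in high dose, 1109, 615 and 612 FPKM in model and 331, 442 and 484 FPKM in control. Model lay above the other 6 libraries, and the limma log2 difference was -0.89 ± 0.381 for high dose against model (adjusted p = 0.369) and 0.85 ± 0.381 for model against control (adjusted p = 0.761). Serpinh1, the collagen chaperone gene, averaged 137 ± 60.3 FPKM in high dose, against 195 ± 58.4 FPKM in model (SD, n = 3 each). Pcolce2, an enhancer of propeptide cleavage, averaged 6.51 ± 5.20 FPKM in high dose and 17.1 ± 8.54 FPKM in control (SD, n = 3 each), with a log2 difference of -1.40 ± 0.612 (limma, adjusted p = 0.888).

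The 5 cross-linking genes all lay below 0 in high dose against model (median -0.21), and 4 lay above 0 in model against control (median 0.58). Lox, a lysyl oxidase gene, stood at 7.06, 10.3 and 54.9 FPKM in high dose, 79.9, 24.2 and 29.2 FPKM in model and 9.61, 20.2 and 13.4 FPKM in control. High dose ran from below every control library to above 2 of the 3 model libraries, as for Col1a1, and model lay above control (limma log2 difference 1.42 ± 0.728, adjusted p = 0.764). Of 8 small proteoglycans that sit on fibrils, 6 lay below 0 in high dose against model (median -1.59) and 7 in high dose against control (median -1.12). Prelp stood at 7.73, 27.7 and 40.1 FPKM in high dose, 128, 62.3 and 70.8 FPKM in model and 51.9, 63.9 and 86.9 FPKM in control. Ogn stood at 19.5, 57.5 and 40.7 FPKM in high dose, 145, 93.2 and 84.8 FPKM in model and 105, 116 and 58.4 FPKM in control. For both, all high dose libraries lay below all others, with limma log2 differences from model of -1.94 ± 0.551 and -1.52 ± 0.434 (adjusted p = 0.259 for each).

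Of 8 tested collagen receptor and uptake genes, 7 lay below 0 in high dose against model (median -0.69) and 7 above 0 in model against control (median 0.48). Itga1, the collagen-binding integrin subunit of smooth muscle, stood at 8.70, 3.93 and 5.75 FPKM in high dose, 10.4, 18.7 and 20.5 FPKM in model and 5.83, 8.33 and 11.0 FPKM in control. Its limma log2 difference was -1.30 ± 0.353 for high dose against model (adjusted p = 0.250). Lair1, an inhibitory collagen receptor of leukocytes, stood at 0.923, 0.850 and 3.75 FPKM in high dose, 8.85, 2.94 and 1.78 FPKM in model and 0.795, 0.921 and 0.105 FPKM in control. The model libraries lay above the control libraries (limma log2 difference 1.61 ± 0.542, adjusted p = 0.713).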

How the data were processed

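RNA from aortic arch was sequenced in 9 libraries (NEBNext Ultra kit, per the labels' protocols), and the authors deposited 1 table of FPKM values for 21989 genes. The submitters' processing notes name the builds GRCm38.p5 and mm10. No aligner, counter or strand setting is given in the sources used here, so reads where genes overlap on opposite strands (Col4a1 with Col4a2, Col10a1 with Nt5dc1, Col9a3 with Tcfl5) may be shared. Groups came from sample titles, and columns AS, HD and Contorl were matched to model, high dose and control by name and number. FPKM is relative to a library's total, and the table holds no counts, so absolute depth is unknown and no count model was run.

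Differences were fitted on log2(FPKM + 1) with limma 3.58.1 (R 4.3.3) for the 12895 genes with at least 1 FPKM in at least 3 libraries, all 9 libraries in 1 fit, with a trend and two-sided p-values adjusted by Benjamini-Hochberg over all genes tested (threshold 0.05). The scale understates changes of low genes. The procedure was tested on simulated data drawn gene by gene. These held none of the tissue mixtures seen in the real libraries, so that test does not cover such mixtures. Sums, ratios and figures were made in Python 3.11.15 with pandas 2.3.3, numpy 2.4.6 and matplotlib 3.10.9, positions read from GENCODE M21 (GRCm38) and promoters from RefSeq (GRCm38.p6).

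Members and lists were chosen with earlier results of these data known. The naming rule took the main chains, in each comparison the 5 tested members of smallest p in each direction, Apoe, and up to 2 members of each pathway list per direction, of which those with the smallest p are printed; further members named for a high value in 1 library were chosen after their values were seen. Replicate numbers were not taken to pair the samples, since the correlations of same-numbered libraries ran from -0.522 to 0.306. Alternatives were another pseudocount, other filters and scalings, array weights, robust estimation, a block for the replicate number, a fit of only the 2 groups compared and each library left out. Added after seeing the data were fits without the 2 libraries high in airway genes, with only the 5 libraries low in heart muscle genes, and with the mean of the heart muscle list as a covariate.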

Additional observations from a re-analysis of the deposited data

How the results depend on the processing

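With 3 libraries a group, standard errors on the log2 scale reached 1.10 for Col3a1, and limma called 0 collagen genes in each comparison under every setting tried but 1, given below. The median collagen difference stayed below 0 in high dose against model and above 0 in model against control under all settings tried, while high dose against control took both signs. For high dose against model the median was -0.30 with no filter and -1.71 with the heart muscle covariate. It was -2.10 in the 5 libraries low in heart muscle genes, which were the 3 model libraries, high dose 1 and control 3. High dose and control thus have 1 library each there, assumed to vary like the model libraries. High dose 1 was the library with the lowest summed collagen. In those 5 libraries limma called 591 genes for high dose against model, 1 of them a collagen gene (Col28a1, 2.09, adjusted p = 0.0399) and 2 of them genes of collagen processing, and 229 genes for high dose against control, whose collagen median was -0.74. Array weights, from 0.379 for control 3 to 5.92 for model 2, gave 6 genes for high dose against model, and 684 genes with 2 collagen processing genes for model against control. Only the 2 groups compared gave 1 gene for high dose against model. Left-out libraries gave 0 to 46 genes for high dose against model, 46 without high dose 3, with collagen medians of -1.50 to -0.47. The cause of these shifts was not tested.

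The replicate number as a block called 0 collagen genes in each comparison, with smallest adjusted p of 0.378, 0.883 and 0.947 in high dose against model, model against control and high dose against control; same-numbered libraries correlated at -0.522 to 0.306, so the number was not taken as a pairing.

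Signs turned for single genes. In high dose against model they did not turn for Col18a1, Col6a3, Col8a1, Col14a1, Col12a1, Col6a1, Col6a2, Col4a1 or Col15a1. For each of these, every high dose library lay below every model library, so leaving out libraries could not turn the sign. Nor did they turn for Col1a1, Col1a2, Col3a1, Col5a1, Col5a2, Col4a2 or Col4a5, whose libraries overlapped. In that comparison Col17a1 took -0.14 with a pseudocount of 0.1 and -0.40 with array weights, which gave Col16a1 0.02. Without the 2 libraries high in airway genes Col7a1 was -0.33 and Col17a1 -1.11. In the 5 libraries Col23a1 was -0.22, Col27a1 -0.05, Col7a1 -0.54 and Col17a1 -1.20, and with the covariate Col23a1 -0.07, Col7a1 -0.04 and Col17a1 -0.54. Left-out libraries gave -0.29 to 0.12 for Col16a1, -0.11 to 1.35 for Col28a1, -0.33 to 0.72 for Col7a1 and -1.11 to 0.82 for Col17a1.

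In model against control, array weights gave Col16a1 -0.17 and Col28a1 0.06, and quantile normalization Col23a1 0.07. Without the airway libraries Col4a5 was 0.03, Col23a1 0.25 and Col28a1 0.30. In the 5 libraries Col4a1 was -0.03, Col4a2 -0.13, Col4a5 0.72, Col4a4 0.31, Col23a1 0.71 and Col28a1 0.50, and with the covariate Col4a5 was 0.85 and Col23a1 0.47. Left-out libraries gave -0.64 to 0.07 for Col4a5, -0.24 to 0.26 for Col16a1, -0.50 to 0.25 for Col23a1 and -0.36 to 0.30 for Col28a1.

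In high dose against control, array weights gave Col5a1 0.09 and Col4a2 0.21, the covariate Col5a1 0.02, quantile normalization Col1a2 -0.08, and the fit without the airway libraries Col4a2 0.01. In the 5 libraries Col1a1 was -1.35, Col1a2 -1.19, Col3a1 -1.19, Col12a1 -0.47, Col16a1 0.36 and Col27a1 -0.45. Left-out libraries gave -1.03 to 1.35 for Col1a1, -0.88 to 0.95 for Col1a2, -1.10 to 1.42 for Col3a1, -0.52 to 0.66 for Col5a1, -0.40 to 0.87 for Col5a2, -0.31 to 0.14 for Col4a2, -0.91 to 0.13 for Col6a1, -1.01 to 0.10 for Col6a2, -0.66 to 0.29 for Col6a3, -0.48 to 0.03 for Col8a1, -0.89 to 0.05 for Col15a1, -0.30 to 0.20 for Col16a1 and -0.19 to 1.28 for Col28a1.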
